A study of Mus musculus with 6 samples.

Results

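The mitosis and G2/M genes are 41 genes whose products prepare, carry out and end cell division, taken as a fixed list of symbols and found on the array through each probe's transcript accession. All 41 were measured, with 65 probes among the 56605 non-control probes of the array. Of these 65, 64 passed a filter that asks for a signal well above background in each of a group's 3 arrays, PNP or untreated, and the remaining probe, the second of Aspm, was below background on all 6 arrays. Each gene was represented by its brightest probe, and all 41 representatives were well above background on 6 of 6 arrays. They were tested among 21479 units, of which 13539 were named genes and the others transcripts without a symbol here.

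The cells were TM4, a permanent mouse line derived from testicular somatic cells and widely used as a model of the Sertoli cell, the cell that nurses germ cells in the seminiferous tubule. One set of cultures received 10 µM PNP (4-nitrophenol, a nitrated phenol) for 24 h, and the other was untreated and likewise labelled 24 h. Each group had 3 samples (n = 3), and no other agent, allele or transgene is named for either. Nothing in the labels says that the 3 samples of a group grew as separate cultures. The p-values therefore cover the variation among these samples, and that variation may be technical.

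Entry into mitosis is driven by Cdk1 bound to B-type cyclins, which Cdc25 phosphatases switch on and the Polo and Aurora kinases reinforce. Kinetochores then attach chromosomes to spindle microtubules while the spindle checkpoint holds back the anaphase-promoting complex. Once the checkpoint is satisfied, Cdc20 directs that complex to securin and cyclin B, chromatids part, and the central spindle and contractile ring divide the cell. Transcripts of these genes are known to peak together in G2 and M phase in cycling cells, through the MuvB complex with B-Myb and Foxm1 at CHR elements and NF-Y at CCAAT boxes. Immature Sertoli cells divide and adult ones do not, whereas a line such as TM4 divides in culture.

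The promoter sequences of 4 members are shown to display these elements in genes described below. RefSeq sequence of assembly GRCm38.p6 was matched for 33 of the 41 members. Each line holds the 250 bases before the annotated gene start, 5′ to 3′ on the gene's strand, with capitals for the CHR element (TTTGAA or TTCGAA) and the CCAAT box (CCAAT), each searched on both strands.
Kif11 (chr19:37376132-37376381, plus strand): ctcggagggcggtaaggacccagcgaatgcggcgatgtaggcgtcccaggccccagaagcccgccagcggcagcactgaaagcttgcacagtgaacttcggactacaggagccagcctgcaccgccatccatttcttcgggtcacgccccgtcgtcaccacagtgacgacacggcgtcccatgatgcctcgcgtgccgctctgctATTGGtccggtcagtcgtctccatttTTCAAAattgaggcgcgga
Ccnb2 (chr9:70421555-70421804, minus strand): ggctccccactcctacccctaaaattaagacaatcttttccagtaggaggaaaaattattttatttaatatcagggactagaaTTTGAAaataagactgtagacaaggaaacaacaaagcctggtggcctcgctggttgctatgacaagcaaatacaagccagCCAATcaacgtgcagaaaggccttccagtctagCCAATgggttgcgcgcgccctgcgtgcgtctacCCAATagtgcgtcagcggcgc
Ube2c (chr2:164769679-164769928, plus strand): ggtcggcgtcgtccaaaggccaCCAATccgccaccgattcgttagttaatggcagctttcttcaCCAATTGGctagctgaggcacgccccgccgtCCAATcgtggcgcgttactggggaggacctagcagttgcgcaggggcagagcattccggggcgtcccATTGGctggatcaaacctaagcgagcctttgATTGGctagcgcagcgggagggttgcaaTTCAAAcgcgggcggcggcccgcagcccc
Cdc20 (chr4:118437344-118437593, minus strand): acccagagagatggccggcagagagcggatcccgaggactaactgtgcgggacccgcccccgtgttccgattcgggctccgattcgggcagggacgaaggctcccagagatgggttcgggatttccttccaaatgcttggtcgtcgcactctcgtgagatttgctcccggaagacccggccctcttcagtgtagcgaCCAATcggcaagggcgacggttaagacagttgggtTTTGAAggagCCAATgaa
In Kif11 the CHR element begins 19 bases before the start and the CCAAT box 45 bases before it, both on the opposite strand. Ube2c holds 6 CCAAT boxes, of which a pair on opposite strands overlap. Among the 33 matched members, 10 (30.3%) held a CHR element, 26 (78.8%) a CCAAT box and 9 (27.3%) both. Over the 27025 promoters of the same length in the table, the shares were 17.4%, 34.5% and 6.21%. The 9 members with both were Bub1b, Ccnb2, Cdc20, Cdk1, Ect2, Kif11, Mki67, Top2a and Ube2c. A match of these letters is a description of the window and not evidence of binding.

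The 6 arrays lay on 3 slides, with 2 array positions used per slide, as the file headers and names give them. Position 1 is the label used here for names ending in _2_3, and position 2 for names ending in _2_4. Slide 1 held untreated replicates 1 (position 1) and 2 (position 2). Slide 2 held PNP replicate 1 (position 2) and untreated replicate 3 (position 1), and slide 3 held PNP replicates 2 (position 1) and 3 (position 2). All levels below are log2 of the processed signal minus the array's 75th percentile, so that 0 is the level of a probe at that percentile and a step of 1 is a 2-fold difference. From 47.8% to 57.9% of probes were well above background per array. Of 16 Sertoli cell markers, 13 were above background on all 6 arrays, while Amh, Fshr and Cldn11 were below it on all 6. The 4 peritubular myoid markers and 2 of 4 macrophage markers (Csf1r and Cd68, with Adgre1 and Ptprc below background on all 6) were also above it on all 6, against 1 of 8 germ cell, 0 of the 5 Leydig markers with a probe and 0 of 3 endothelial markers. The signals of the 13 Sertoli markers were summed on the linear scale, so the brightest weigh most. The log2 of that sum was 3.78, 4.03 and 3.77 on the PNP arrays and 4.18, 4.07 and 3.88 on the untreated arrays.

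**Figure D1:**
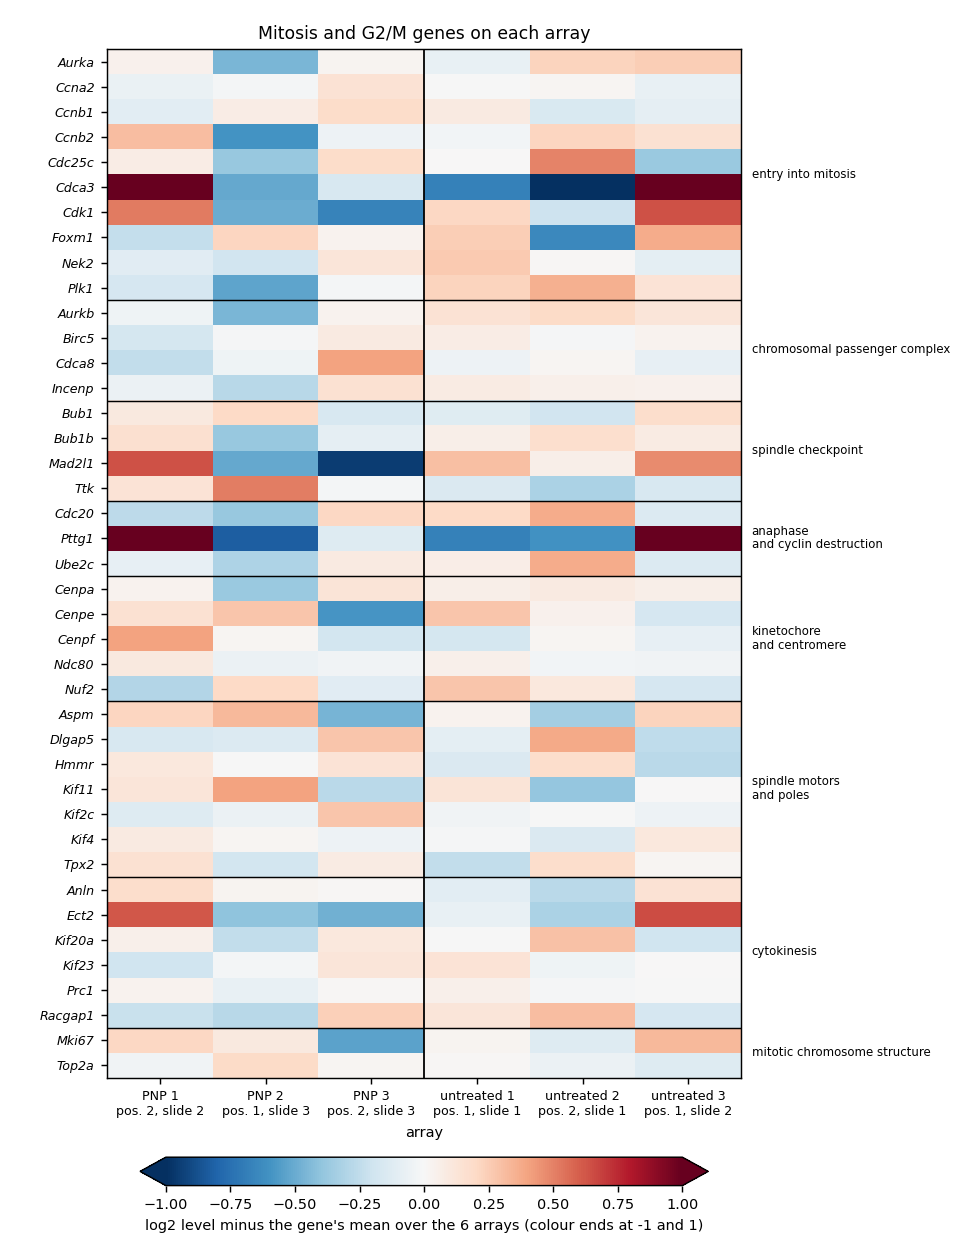
Heat map of the 41 genes (rows, by role) on the 6 arrays (columns, PNP left, with array position and slide); colour is the log2 level minus the gene's mean over the 6 arrays, blue below and red above. Cdca3, Pttg1, Ect2, Cdk1 and Mad2l1 are red on both arrays of slide 2, and 16 of 41 genes have their lowest level on PNP replicate 2. The share of all units lowest on that array was not computed, so this count is not read as a trait of these genes.

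The first question the design asks is whether 24 h of PNP altered these transcripts. No mitosis or G2/M gene passed the test: 0 of 41 had an adjusted p under 0.05 by limma, as did 0% of all 21479 units. At an unadjusted p under 0.05, 0 of 41 members stood against 9.94% of all units. The log2 fold changes, PNP over untreated, ran from -0.55 (Mad2l1) to 0.42 (Ttk), with 18 above and 23 below 0. Their median was -0.060, beside -0.042 over all units and -0.089 over the named genes.

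The precision of these arrays bounds what could be seen. The median 95% interval of a member reached 0.50 to either side of its estimate, and for 36 of 41 it lay wholly within a 2-fold change either way. The other 5 were Cdca3, Pttg1, Ect2, Cdk1 and Mad2l1, which had the widest intervals. In bulk RNA, fewer cells in G2 and M and less of each transcript per cell cannot be told apart.

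By brightest probe, groups did not overlap for 3 members. Only Ttk was higher on every PNP array than on every untreated one, 1 of 41 beside 7.6% of all units, and Plk1 and Aurkb were lower, 2 of 41 beside 7.83% of all units. With so few genes these counts are a description, and no difference from the array as a whole is read from them. With array position as a block in the fit, again 0 of 41 members and 0% of units passed, and 2 members (Plk1 and Ttk) had an unadjusted p under 0.05, beside 13.7% of units. The members' median was then -0.049, beside -0.065 over all units.

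Leaving out single arrays moved the estimates of the 8 members with the smallest p without turning a sign. The ranges were 0.27 to 0.53 for Ttk, -0.41 to -0.16 for Aurkb, -1.01 to -0.22 for Mad2l1, -0.80 to -0.20 for Cdk1, -0.47 to -0.17 for Cdc20, -0.36 to -0.094 for Aurka and -0.34 to -0.069 for Bub1b, and that of Plk1 is given below.

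**Figure D2:**
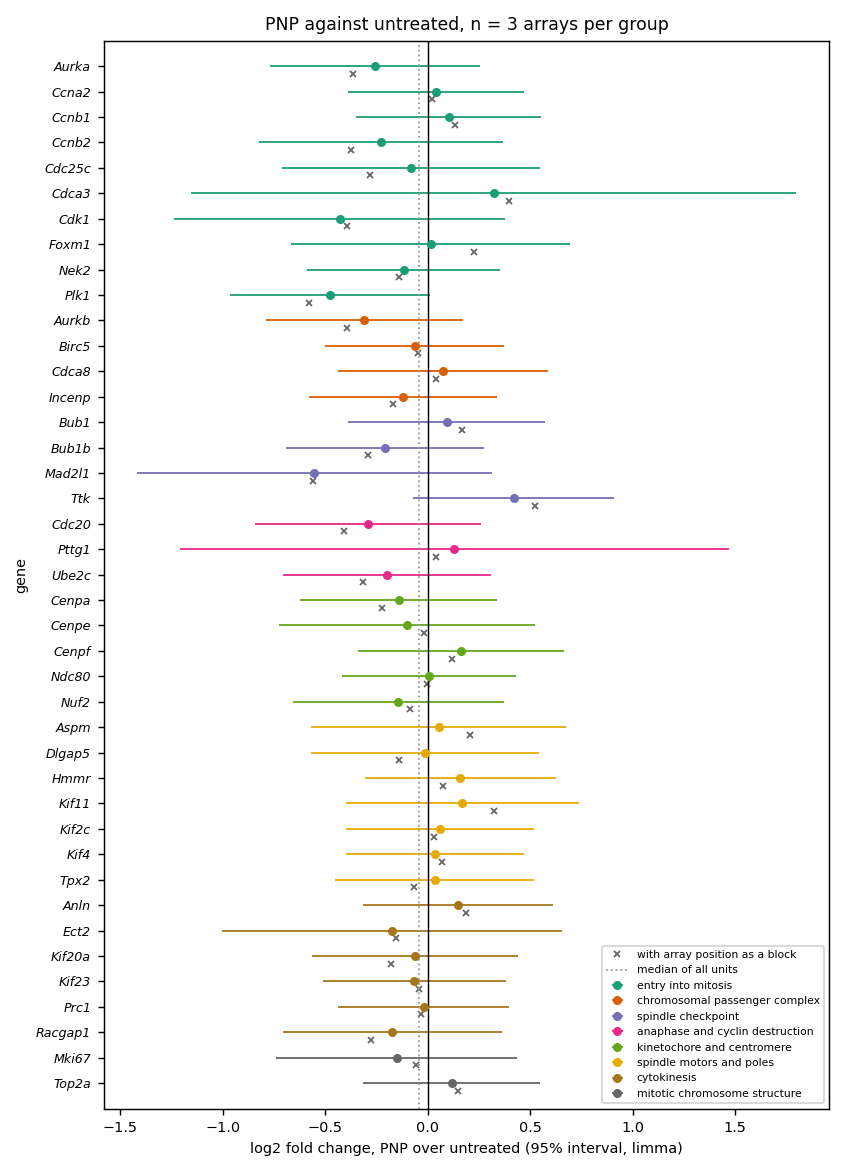
Log2 fold change of each gene, PNP over untreated (points, coloured by role), with the 95% interval from limma (n = 3 arrays per group); crosses give the estimate with array position as a block, and the dotted line the median of all units. Every interval includes 0, and those of Cdca3, Pttg1, Mad2l1, Ect2 and Cdk1 are the widest.

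Among the 10 genes of entry into mitosis, 4 log2 fold changes were above 0 and 6 below, with a median of -0.10. Plk1, the Polo kinase that helps activate Cdk1 and mature the spindle poles, had the smallest p of all members. Its level was 3.84, 3.48 and 3.99 on PNP arrays 1 to 3, against 4.23, 4.36 and 4.15 on untreated arrays 1 to 3. All 3 PNP arrays lay below all 3 untreated arrays, and PNP replicate 2 was the lowest. The log2 fold change was -0.48 ± 0.21 (SE; 95% interval -0.96 to 0.010; adjusted p = 0.509), a level 0.718 of that in untreated cells. With array position as a block it was -0.58 (adjusted p = 0.269), and leaving out single arrays gave -0.59 to -0.33.

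Cdk1, the kinase at the centre of mitotic entry, measured 2.33, 1.31 and 1.14 on PNP arrays, against 2.01, 1.60 and 2.45 on untreated arrays. The groups overlapped, since PNP replicate 1 was higher than 2 untreated arrays. Its log2 fold change was -0.43 ± 0.35 (adjusted p = 0.702). Within position 1 it was -0.92 and within position 2 0.13, so its sign depended on which arrays were set against each other. Ccnb1, cyclin B1, its activating partner, measured 3.94, 4.12 and 4.23 on PNP arrays and 4.13, 3.89 and 3.95 on untreated arrays by its brightest probe. The groups overlapped, and the log2 fold change was 0.10 ± 0.20 (adjusted p = 0.881). Aurka, the Aurora kinase of spindle poles, measured 2.30, 1.80 and 2.29 on PNP arrays against 2.18, 2.48 and 2.50 on untreated arrays. PNP replicate 2 was low while the other 2 PNP arrays lay among the untreated ones, and the log2 fold change was -0.26 ± 0.23 (adjusted p = 0.718).

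Foxm1, the transcription factor of the G2/M programme, averaged 2.69 ± 0.23 on PNP arrays and 2.68 ± 0.55 on untreated arrays (SD, n = 3 each). Its log2 fold change was 0.015 ± 0.30 (adjusted p = 0.994). The 95% interval was -0.67 to 0.69, and untreated replicate 2 was the lowest of all 6 arrays. These are values of the brightest Foxm1 probe, and the second gave a log2 fold change of -0.32 ± 0.22. Of the other genes of this role, Ccna2 (cyclin A2), Ccnb2 (cyclin B2), Cdc25c (a phosphatase that activates Cdk1), Nek2 (a centrosomal kinase) and Cdca3 (an adaptor for destruction of the mitotic inhibitor Wee1) had log2 fold changes from -0.23 (Ccnb2) to 0.32 (Cdca3).

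The chromosomal passenger complex, which corrects faulty attachments and later guides cytokinesis, had 1 member above 0 and 3 below, with a median of -0.092. Its kinase Aurkb measured 3.03, 2.61 and 3.11 on PNP arrays against 3.22, 3.27 and 3.20 on untreated arrays. The 3 untreated arrays were tightly grouped, and PNP replicate 2 was again the lowest. On the log2 scale the fold change was -0.31 ± 0.21 (95% interval -0.79 to 0.17; adjusted p = 0.649). Its second probe gave -0.37. The other subunits, Birc5 (survivin), Cdca8 (borealin) and Incenp (the scaffold), ranged from -0.12 (Incenp) to 0.075 (Cdca8) by brightest probe. Their second probes gave -0.20 (Birc5), -0.35 (Cdca8) and -0.082 (Incenp).

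The spindle checkpoint genes held both the highest and the lowest log2 fold change of the list. Ttk, the kinase Mps1 that starts checkpoint signalling, measured 2.26, 2.64 and 2.11 on PNP arrays, against 1.98, 1.81 and 1.96 on untreated arrays. All PNP arrays lay above all untreated arrays, with PNP replicate 2 the highest. The log2 fold change was 0.42 ± 0.21 (95% interval -0.070 to 0.91; adjusted p = 0.548), a level 1.34 times that in untreated cells, and 0.52 (adjusted p = 0.303) with the position block. Mad2l1, which binds and inhibits Cdc20 at the checkpoint, measured 4.39, 3.24 and 2.81 on PNP arrays and 4.06, 3.81 and 4.23 on untreated arrays. The spread was in the PNP group, where replicate 1 was the highest of all 6 arrays and replicates 2 and 3 the lowest. Mad2l1 had a log2 fold change of -0.55 ± 0.38 (adjusted p = 0.651). Bub1b, the checkpoint protein BubR1, measured 3.63, 3.09 and 3.39 on PNP arrays and 3.53, 3.64 and 3.56 on untreated arrays. Only PNP replicates 2 and 3 lay below the untreated arrays, and the log2 fold change was -0.21 ± 0.21 (adjusted p = 0.756). Bub1, the kinase that recruits checkpoint proteins to kinetochores, had 0.092 ± 0.21.

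Of the 3 genes of anaphase and cyclin destruction, Cdc20, the activator of the anaphase-promoting complex, had the smallest p. It measured 4.90, 4.78 and 5.36 on PNP arrays, against 5.36, 5.53 and 5.03 on untreated arrays. The groups overlapped, and within each group the arrays at position 2 were the higher ones. The log2 fold change was -0.29 ± 0.24 (adjusted p = 0.703). Ube2c, the ubiquitin-conjugating enzyme that works with that complex, had -0.20 ± 0.22, and Pttg1, securin, which inhibits separase until anaphase, had 0.13 ± 0.59.

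By their brightest probes, the structural, motor and cytokinesis genes had log2 fold changes between -0.17 and 0.17. Their other probes past the filter reached further, from -0.33 (Kif2c) to 0.59 ± 0.26 (Hmmr). At that Hmmr probe every PNP array lay above every untreated array, narrowly (lowest PNP -0.127, highest untreated -0.130). The ranges below are again those of brightest probes. Among 5 kinetochore and centromere genes, Cenpa (the centromeric histone), Cenpe (a kinetochore motor), Cenpf (an outer kinetochore protein), and Ndc80 and Nuf2 (partners in microtubule binding), the log2 fold changes ran from -0.14 (Nuf2) to 0.16 (Cenpf). For the 7 genes of spindle motors and poles they ran from -0.015 (Dlgap5) to 0.17 (Kif11), with 6 above 0. These 7 were Kif11 (the motor that pushes spindle poles apart), Kif2c (a microtubule depolymerase), Kif4 (a chromosome motor), Tpx2 (which activates Aurora A at the spindle), Hmmr, Dlgap5 and Aspm. For the 6 cytokinesis genes, Kif20a and Kif23 (motors of the central spindle), Prc1 (its microtubule bundler), Anln (anillin of the contractile ring), Ect2 (an exchange factor needed for cleavage) and Racgap1, the range was -0.17 (Ect2) to 0.15 (Anln), with 1 above 0.

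The proliferation marker Mki67 (Ki-67, which coats mitotic chromosomes) measured 1.83, 1.72 and 1.08 on PNP arrays and 1.64, 1.49 and 1.94 on untreated arrays. PNP replicate 3 was the lowest array and untreated replicate 3 the highest, and the groups overlapped. The log2 fold change was -0.15 ± 0.26 (adjusted p = 0.864). Top2a, the topoisomerase that untangles sister chromatids, measured 3.80, 4.02 and 3.86 on PNP arrays and 3.85, 3.78 and 3.71 on untreated arrays. The groups overlapped narrowly. Its log2 fold change was 0.12 ± 0.19 (95% interval -0.32 to 0.55; adjusted p = 0.857), and its second probe gave 0.11.

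Several genes carry more than 1 probe, annotated to the same transcript except in 4 of them (Birc5, Kif2c, Racgap1 and Ttk). Of 20 genes with 2 or more probes past the filter, 12 had probes whose PNP differences had opposite signs. The median range between probes of a gene was 0.27 and the largest 0.73, both log2 differences. The 3 genes with a range over 0.5 were Ttk, Mad2l1 and Ccnb1. For Ttk, the 2 further probes gave 0.22 ± 0.19 and -0.31 ± 0.21, against 0.42 for the brightest. The dimmest Ttk probe measured -0.54, -0.70 and -1.01 on PNP arrays and -0.52, -0.49 and -0.32 on untreated arrays, so that every PNP array lay below every untreated array there. This probe is annotated to another Ttk transcript than the other 2. The separation of groups in Ttk thus had opposite directions at its brightest and its dimmest probe. The second Mad2l1 probe measured 3.56, 3.32 and 3.29 on PNP arrays and 3.17, 3.29 and 3.51 on untreated arrays, with a log2 fold change of 0.064 ± 0.20. For Ccnb1, the further probes gave -0.51 ± 0.30 and -0.24 ± 0.19. No probe of any member passed the test across all probes.

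**Figure D3:**
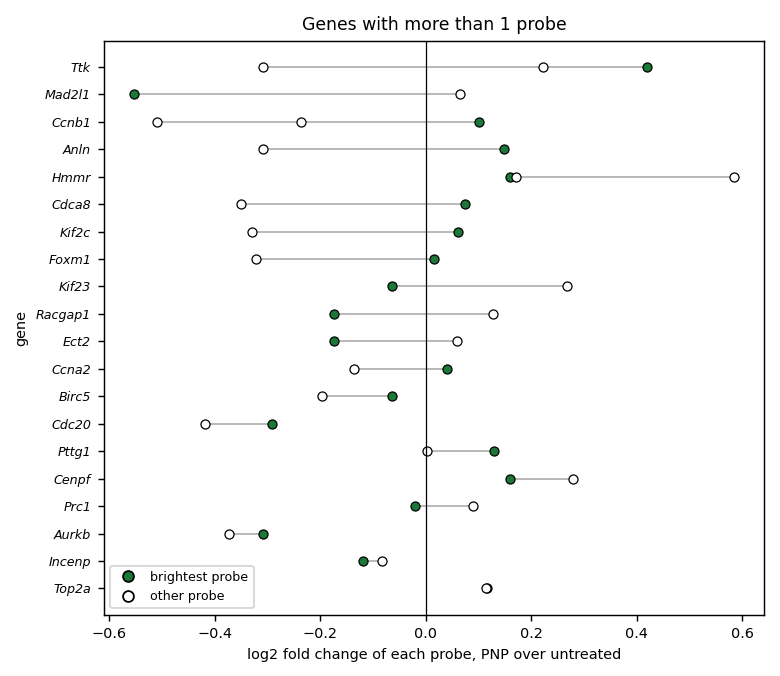
Log2 fold change, PNP over untreated, of each probe past the filter for the 20 genes with more than 1 such probe (rows, widest range at the top); filled points are the brightest probe, open points the others. Ttk, Mad2l1 and Ccnb1 have the widest ranges, and the probes of Top2a lie at 0.11 and 0.12.

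The second comparison set array position 2 (PNP replicates 1 and 3 and untreated replicate 2) against position 1 (PNP replicate 2 and untreated replicates 1 and 3), with the treatment group in the fit. Position was associated with many transcripts on the array: 566 units, 2.64%, passed the test. That count depended on single arrays, being 1069 without PNP replicate 1, 50 without PNP replicate 3 and 0 without each of the other 4, and it was 0 with no filter on dim probes. None of the 41 members did, and 3 of them (Cdc25c, Foxm1 and Kif11) had an unadjusted p under 0.05, beside 20.6% of all units. The log2 differences of members, position 2 minus position 1, ran from -0.63 to 0.59, with 24 above 0 and 17 below. Their median was 0.056, beside 0.059 over all units. Positions did not overlap with position 2 higher for 4 members (Cdc25c, Kif20a, Hmmr and Tpx2), beside 11.5% of units, and with position 2 lower for 1 (Foxm1), beside 10.9%. These are the brightest probes. At the further Hmmr probes the positions overlapped, with log2 differences of -0.22 ± 0.18 and 0.44 ± 0.22. The sign of the difference was shared by both groups in 28 of 41 members, beside 68.8% of all units.

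Cdc25c had the highest of these differences. It measured 3.63 and 3.74 in PNP replicates 1 and 3 and 4.05 in untreated replicate 2, all at position 2. At position 1 it measured 3.18 in PNP replicate 2 and 3.56 and 3.18 in untreated replicates 1 and 3. Every array at position 2 was above every array at position 1, and the log2 difference was 0.59 ± 0.19 (95% interval 0.14 to 1.04; adjusted p = 0.145). It was 0.50 among PNP arrays and 0.68 among untreated arrays. Foxm1 ran the other way, with 2.45 and 2.72 in PNP replicates 1 and 3 and 2.04 in untreated replicate 2 at position 2. At position 1 it measured 2.90 in PNP replicate 2 and 2.93 and 3.06 in untreated replicates 1 and 3. The positions did not overlap, untreated replicate 2 was the lowest, and the log2 difference was -0.63 ± 0.22 (adjusted p = 0.157). It was -0.32 among PNP arrays and -0.95 among untreated arrays. The second Foxm1 probe measured 1.21, 0.93 and 1.42 on PNP arrays and 1.43, 1.35 and 1.75 on untreated arrays, where the positions overlapped and the log2 difference was 0.068 ± 0.22, so the gap between positions rests on 1 of 2 probes.

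Kif11 measured 0.31 and -0.086 in PNP replicates 1 and 3 and -0.20 in untreated replicate 2 at position 2, against 0.59 in PNP replicate 2 and 0.32 and 0.19 in untreated replicates 1 and 3 at position 1. PNP replicate 1 overlapped with position 1 while the other 2 arrays at position 2 were the lowest, and the log2 difference was -0.46 ± 0.19 (adjusted p = 0.233). Aspm, a spindle pole protein, measured -1.39 and -2.07 in PNP replicates 1 and 3 and -1.95 in untreated replicate 2 at position 2, against -1.28 in PNP replicate 2 and -1.57 and -1.39 in untreated replicates 1 and 3 at position 1. The same 2 arrays, PNP replicate 3 and untreated replicate 2, were lowest, and the log2 difference was -0.46 ± 0.23 (adjusted p = 0.318).

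The other 4 of the 8 members with the smallest p for position had higher means at position 2. Kif20a, a motor of the central spindle, measured 5.17 and 5.22 in PNP replicates 1 and 3 and 5.41 in untreated replicate 2 at position 2, against 4.87 in PNP replicate 2 and 5.11 and 4.91 in untreated replicates 1 and 3 at position 1. The positions did not overlap, and the log2 difference was 0.36 ± 0.18 (adjusted p = 0.301). Ccnb2 measured 4.21 and 3.85 in PNP replicates 1 and 3 and 4.11 in untreated replicate 2 at position 2, against 3.30 in PNP replicate 2 and 3.88 and 4.05 in untreated replicates 1 and 3 at position 1. PNP replicate 2 was the lowest array, and the log2 difference was 0.44 ± 0.22 (adjusted p = 0.316), being 0.73 among PNP arrays and 0.15 among untreated arrays. Ube2c measured 5.02 and 5.19 in PNP replicates 1 and 3 and 5.47 in untreated replicate 2 at position 2 and 4.79 in PNP replicate 2 and 5.16 and 4.96 in untreated replicates 1 and 3 at position 1. Untreated replicate 1 reached into the range of position 2, and the difference was 0.36 ± 0.18 (adjusted p = 0.319). Dlgap5, a microtubule-binding spindle protein, measured 1.27 and 1.70 in PNP replicates 1 and 3 and 1.80 in untreated replicate 2 at position 2 and 1.29 in PNP replicate 2 and 1.32 and 1.17 in untreated replicates 1 and 3 at position 1. Untreated replicate 2 and PNP replicate 3 were its highest arrays, and the difference was 0.38 ± 0.21 (adjusted p = 0.366).

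Whether the PNP effect itself differed between positions was tested as an interaction. PNP at position 1 and untreated at position 2 were each a single array, PNP replicate 2 and untreated replicate 2. The slide 2 arrays, PNP replicate 1 and untreated replicate 3, fell in the other combinations. A shift shared by slide 2 therefore enters this contrast and cannot be told apart from it. No member and no unit, 0%, passed this test by limma. An unadjusted p under 0.05 was found for 341 of 21479 units and for 0 of 41 members. The PNP difference had the same sign at both positions in 27 of 41 members (10 above 0 and 17 below), beside 68.2% of all units.

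**Figure D4:**
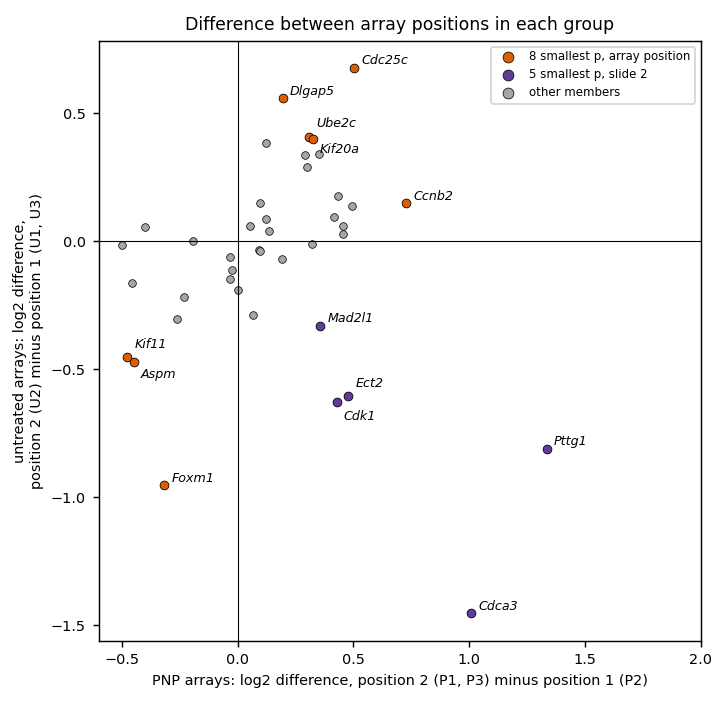
Log2 difference of each gene between position 2 and position 1 among PNP arrays (horizontal axis) and among untreated arrays (vertical axis); orange marks the 8 members of smallest p for array position, purple the 5 of smallest p for slide 2. Cdc25c, Ube2c, Kif20a, Ccnb2 and Dlgap5 lie above 0 in both groups and Foxm1, Kif11 and Aspm below 0 in both, while the 5 purple genes lie above 0 among PNP arrays and below 0 among untreated arrays. Slide 2 held PNP replicate 1 at position 2 and untreated replicate 3 at position 1, so a slide 2 difference enters the axes with opposite signs.

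A further pattern crossed both comparisons and was noticed in the members' values, so the contrast below was added after those values were seen. The arrays of slide 2 (PNP replicate 1 and untreated replicate 3) come from different groups and different positions, and 30 of 41 members differed by less than 0.2 between them. For the other 14 pairs of arrays this count was 13 to 25. Over all units the share within 0.2 was 37.8% for the slide 2 pair and 23.2% to 38.9% for the other pairs. The first principal component of the members, 58.6% of their variance, set these 2 arrays (2.06 and 2.15) apart from the other 4 (-1.42 to -0.70). It was taken without scaling by gene, so genes of wide spread, such as Cdca3 and Pttg1, weigh most in it. Over all units the third component, 21.5% of the variance, also set the slide 2 arrays (-44.0 and -23.9) apart from the other 4 (0.0077 to 28.5), so the separation is not limited to these genes. In the fit of slide 2 against slides 1 and 3, with the treatment group included, 0 of 41 members and 0% of units passed the test. At an unadjusted p under 0.05, 5 members stood apart, all higher on slide 2, beside 10.5% of all units in either direction and 4.59% higher on slide 2. Slide 2 did not overlap with the other slides for 8 higher members, beside 6.92% of units, and for 4 lower members, beside 12.2%. The 8 were Cdca3, Pttg1, Ect2, Cdk1, Mad2l1, Mki67, Anln and Kif4, and the 4 were Nuf2, Cdca8, Ccna2 and Dlgap5. At the second probes of Anln (-0.052) and Ccna2 (0.20) the slide 2 difference had the opposite sign. The members' median, 0.023, stood beside -0.12 over all units.

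Cdca3 differed most. It measured 1.42 in PNP replicate 1 and 1.59 in untreated replicate 3, both on slide 2. On the other slides it measured -0.25 and 0.10 in PNP replicates 2 and 3 and -0.41 and -0.87 in untreated replicates 1 and 2. The 2 arrays of slide 2 stood over 1 log2 step above every other array, and the log2 difference was 1.86 ± 0.26 (adjusted p = 0.165), a fold of 3.63. Cdca3, Pttg1 and Ect2 fall outside the rule by which genes were chosen for full description and were named after their values were seen. Pttg1 measured 3.07 in PNP replicate 1 and 3.02 in untreated replicate 3 on slide 2. Elsewhere it measured 1.10 and 1.80 in PNP replicates 2 and 3 and 1.25 and 1.32 in untreated replicates 1 and 2. The log2 difference was 1.68 ± 0.24 (adjusted p = 0.165), a fold of 3.2. Ect2 measured 1.65 in PNP replicate 1 and 1.68 in untreated replicate 3 on slide 2. Elsewhere it measured 0.62 and 0.55 in PNP replicates 2 and 3 and 0.95 and 0.71 in untreated replicates 1 and 2, with a log2 difference of 0.96 ± 0.19 (adjusted p = 0.177). Cdk1 and Mad2l1, whose values on each array stand above, had differences of 0.87 ± 0.22 (adjusted p = 0.238) and 0.83 ± 0.30 (adjusted p = 0.395). In each of these genes the slide 2 array was the highest of its own group, PNP and untreated alike.

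Second probes of these genes did not all give the same picture. The second Pttg1 probe measured 0.29, -0.27 and 0.31 on PNP arrays and -0.013, 0.45 and -0.13 on untreated arrays. Neither slide 2 array stood apart there, and the difference of slide 2 from the others was -0.040, against 1.68 at the brightest probe. For Ect2 the second probe gave 0.26 and for Mad2l1 0.27. Cdca3 and Cdk1 have a single probe each. A further probe of Ccnb1 measured 2.97, 2.27 and 1.99 on PNP arrays and 2.98, 2.54 and 3.25 on untreated arrays, with a slide 2 difference of 0.67, while the brightest Ccnb1 probe gave -0.15. Where on the transcripts these probes lie was not analysed here.

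Over the 41 members, the deviations of PNP replicate 1 and untreated replicate 3 from their group means had a Pearson correlation of 0.74, beside 0.14 over all 21479 units. Without the 5 genes above it was 0.20 over 36 members. These points share 2 arrays and 1 slide, and the correlation is given as a description. The slide 2 arrays had 51.6% and 47.8% of probes well above background, against 51.9% to 57.9% on the other 4. Whether the slide, the RNA or the cultures carry the pattern was not tested.

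**Figure D5:**
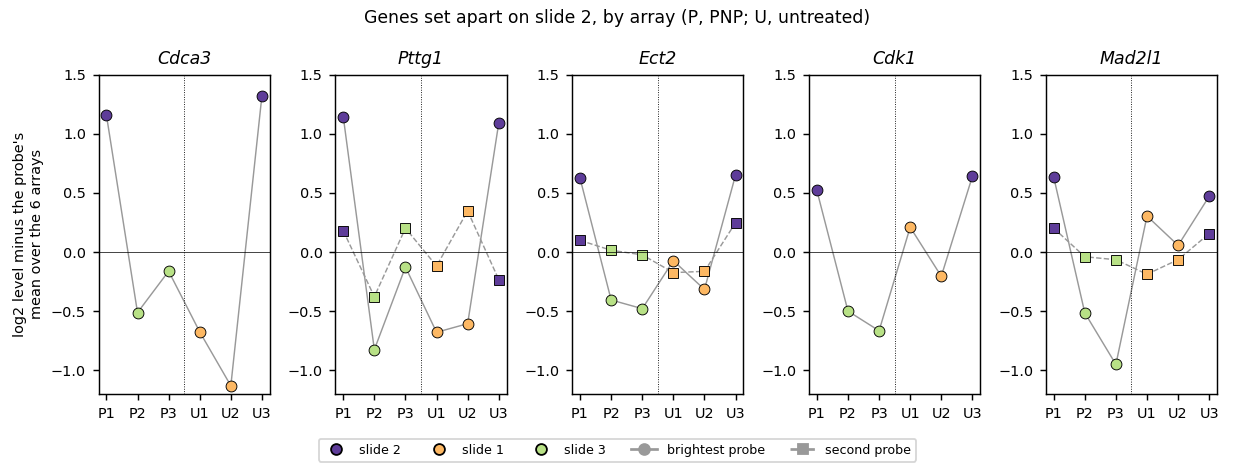
Log2 level of each probe minus that probe's mean over the 6 arrays, for Cdca3, Pttg1, Ect2, Cdk1 and Mad2l1 (panels; P1 to P3, PNP; U1 to U3, untreated); circles are the brightest probe, squares the second, and purple marks slide 2. P1 and U3 are the highest circles in every panel, and the squares of Pttg1 show no such rise.

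The pattern bears on the PNP comparison of these 5 genes, since 1 array of each group lies on slide 2. With slide 2 left out, an alternative also chosen after seeing the data, PNP replicates 2 and 3 were set against untreated replicates 1 and 2, and again 0 of 41 members passed. Mad2l1 then had a log2 fold change of -0.91 (adjusted p = 0.291), Cdk1 -0.58 (adjusted p = 0.487), Plk1 -0.56 (adjusted p = 0.522) and Ttk 0.48 (adjusted p = 0.585). In that setting slides and groups cannot be told apart, since slide 3 held PNP arrays only and slide 1 untreated arrays only.

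A wider list of 78 further genes of mitosis, all tested, was read from the same fit. For PNP none passed the test, 35 log2 fold changes were above 0 and 43 below, and the median was -0.054. At an unadjusted p under 0.05, 1 was higher, beside 6.86% of all units, and 0 lower, beside 3.07%. That gene was Lin54, the DNA-binding subunit of MuvB that reads the CHR element, with 1.82, 2.09 and 2.13 on PNP arrays against 1.42, 1.32 and 1.49 on untreated arrays. The groups did not overlap, and its log2 fold change was 0.61 ± 0.20 (adjusted p = 0.368). The next by p were Mybl2 (B-Myb, -0.53 ± 0.25), Kif14 (a cytokinesis motor, 0.67 ± 0.32) and Cks2 (a Cdk1-binding subunit, -0.38 ± 0.18), with adjusted p from 0.532 to 0.536. For slide 2 against the others, 0 of the 78 passed the test. At an unadjusted p under 0.05, 5 of the 78 stood apart, all higher on slide 2, beside 4.59% of all units in that direction. These were Gtse1 (1.26 ± 0.23), Kif15 (1.36 ± 0.40), Ncapg2 (1.05 ± 0.34), Wee1 (0.85 ± 0.23) and Bub3 (0.83 ± 0.18), named after their values were seen, with log2 differences ± SE. The count of 5 of 78 lies near that share of all units and is given as a description only. For 36 genes of DNA replication, the median log2 fold change was -0.29, with 29 below 0 and 0 past the test, and -0.18 with position as a block. Between positions their median difference was -0.26, and 2 of 36 passed the test, both lower at position 2, beside 1.52% of all units in that direction.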

How the data were processed

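Total RNA of 3 PNP and 3 untreated TM4 samples was labelled with Cy3 and hybridised to 1-colour Agilent arrays of 62976 spots, of which 3671 are controls, per the file headers. The deposited intensity values are background-subtracted processed signals from Agilent Feature Extraction 11.5.1.1 per the file headers (10.7 per the submitters' processing notes), not normalized between arrays. The authors also deposited a log2 table of the same arrays, used here as an alternative; its columns followed each array's own log2 signal with correlations across probes of 0.998 or more, had medians of 4.75, and its normalization is not given in the sources used here.

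Spots flagged as outliers were dropped, log2 processed signals of a probe's remaining spots were averaged, and the 75th percentile of the array was taken away. A probe entered if PNP or untreated arrays showed it well above background in 3 of 3 cases (28335, of which 127 were left out because all spots were flagged). Probe accessions were matched to RefSeq symbols of GRCm38.p6 (33767 of 56605 probes). The file headers name another build, so that table gave only names and promoters. The brightest probe represented a gene. Tests were two-sided and used limma 3.58.1 (R 4.3.3) with lmFit and eBayes. They were adjusted by Benjamini-Hochberg across the 21479 units at a threshold of 0.05. The code was run on simulated data with independent noise and no slide effect, so that check does not cover differences between slides. Only 3 arrays per group were measured, which limits the precision.

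The members and gene lists were chosen with earlier results of these data known. Every member is named by role. Full statistics are given for the 8 of smallest p for PNP, the 8 of smallest p for array position, 5 fixed genes (Mki67, Top2a, Cdk1, Ccnb1 and Foxm1) and members whose probes differ by more than 0.5. Of 78 further mitosis genes the 4 of smallest p are named. Alternatives changed background correction, scaling, filter, variance model, array weights, blocks, probe choice, source and arrays.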

Additional observations from a re-analysis of the deposited data

How the results depend on the processing

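With 3 arrays per group the interval of most members spans close to 2-fold, and slide, array position and group are partly tied. No member passed for PNP under 20 of 21 alternatives. The exception was 1 member, Plk1 (-0.56, adjusted p = 0.0391), with array position and slide 2 as blocks and normexp, a combination chosen after seeing the data. For PNP the count of units, 0 in the fit reported, was 1365 with array weights, 538 within position 1, 78 within position 2 and 892 under that same combination. It was 0 with each single array left out. Among the 8 members followed through every PNP alternative, signs turned for Mad2l1 (0.16) and Bub1b (0.075) with slide as a fixed block, and for Cdk1 (0.13) within position 2. With slide as a fixed block only slide 2 holds both groups, so the estimate is PNP replicate 1 against untreated replicate 3, at different positions. Of other members, Cdca3 (-0.84) and Pttg1 (-1.03) turned within position 1 and Ect2 (0.39) within position 2, among 14 of 41 whose sign differed between positions. Each of these within-position comparisons has 1 array in 1 arm (PNP replicate 2 at position 1, untreated replicate 2 at position 2), assumed to vary like the others. Each also has a slide 2 array in 1 arm only (untreated replicate 3 at position 1, PNP replicate 1 at position 2). A slide 2 difference thus enters the 2 comparisons with opposite signs.

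For array position, 566 units in the fit reported became 1173 with normexp, 0 without a filter, 900 with probes above background on all 6 arrays, 1392 with a robust variance trend, 5009 with array weights, 2986 with slide as a random block, 2822 with slide as a fixed block or with slide 2 left out, 1993 with slide 2 as a block, 979 with every probe as a unit and 74 within PNP arrays. Leaving out 1 array gave 0 to 1069: 1069 without PNP replicate 1, 50 without PNP replicate 3 and 0 without each of the others. Members past the test numbered 3 with array weights (Cdc25c, Foxm1 and Kif11), 1 with slide as a random block (Cdc25c) and 1 within untreated arrays (Cdca3, -1.45), where position 2 is 1 array and position 1 includes untreated replicate 3 on slide 2 (1.59, against -0.41 for untreated replicate 1 at position 1 and -0.87 for untreated replicate 2 at position 2). Within PNP arrays, position 1 is likewise 1 array. Array weights put 5.15 on untreated replicate 1 and 0.28 on untreated replicate 3. With normexp, 2 units passed for slide 2 and 7 for the interaction, with 0 members for slide 2. The cause of these shifts was not tested.

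Replicate numbers are shared between the groups. Deviations of same-numbered arrays from their group means correlated at -0.41, -0.55 and -0.41. Each such pair lay at opposite array positions, so these correlations cannot show whether the samples were paired. With a replicate block, 0 units and 0 members passed for PNP (Plk1 -0.48, adjusted p = 0.993), and 399 units and 0 members for position.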
